A study of Mus musculus with 6 samples.

Results

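DNA replication and S phase genes, a set of 42 genes that encode the machinery for copying the genome and its immediate controls, were compared between regulatory T cells (Treg) of HDAC9-/- and wild type mice. The members were taken from a list of gene symbols, and each was represented by its probe set with the highest mean over the 6 arrays. Of the 42 members, 41 had a probe set annotated to that gene alone, out of 12393 genes represented on the array, and Chaf1a was left out. Treg are the suppressive CD4+ T cells marked by the transcription factor Foxp3, and magnetic beads were used here to separate cells carrying CD4 and CD25, a chain of the receptor for interleukin-2. One group held 3 samples from HDAC9-/- mice, which lack a histone deacetylase of class IIa, and the other held 3 from wild type mice. The labels give the strain C57BL/6 for both genotypes and name no treatment. They are silent on age, sex, tissue of origin and the deleted part of the gene, and on whether each sample is a separate mouse, so the p-values cover the spread among the 6 samples, which may be technical. Each sample was hybridised to 1 expression array, and the values are log2 expression made by the authors with RMA, on which a difference of 1 is a doubling.

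Replication begins when the origin recognition complex, CDC6 and CDT1 load the MCM helicase onto origins during G1, a step called licensing, which geminin later blocks. Cyclin E with its kinase and the CDC7-DBF4 kinase then start S phase, CDC45 joins the helicase, and primase and the polymerases copy the strands with the sliding clamp PCNA and its loader RFC. Transcription of many of these genes is driven by E2F factors once the retinoblastoma protein is inactivated, so their transcripts accumulate in cycling cells. Treg in mice are known to contain more cycling cells than resting conventional CD4+ T cells. In a bulk sample, more cells in cycle and more RNA per cell cannot be told apart.

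Promoter sequence was examined because E2F control is a textbook feature of many of these genes. Since many members are known E2F targets, a raised share of matches among them is not independent support for that control. RefSeq windows of 300 bases (250 before and 50 after the gene start, GRCm38.p6) were found for 35 of the 41 members. The E2F consensus was searched on both strands as TTTCCCGC, TTTCGCGC, TTTGCCGC and TTTGGCGC, and CCAAT was searched in the same way; no match of one motif contains the other, though neighbouring matches can share end bases. At least 1 E2F match lay in the windows of 12 of the 35 members (34.3%), compared with 402 of 9887 genes on the array with a window (4.07%), and with 4.74% of genes whose windows had a G+C share at or above the members' lower quartile. Among other replication genes 13 of 35 had a match, and among mitosis and G2 genes 1 of 22. CCAAT was found for 18 of 35 members (51.4%), for 18 of 22 mitosis and G2 genes (81.8%) and for 42.3% of all genes. Of the 18 E2F matches in members' windows, 10 began within 50 bases of the gene start, as did 33.2% of the 449 matches in all genes. These are letter matches and were not tested as binding sites. Windows are shown for Cdt1 (chr8:122567765-122568064, plus strand) and Mcm3 (chr1:20820263-20820562, minus strand), the members with a match that had the smallest p-values in the comparison, and for Tyms (chr5:30073576-30073875, minus strand) and Orc1 (chr4:108579204-108579503, plus strand), the members with negative differences. Each runs 5′ to 3′ along the gene, and capitals mark the E2F matches.
Cdt1 promoter: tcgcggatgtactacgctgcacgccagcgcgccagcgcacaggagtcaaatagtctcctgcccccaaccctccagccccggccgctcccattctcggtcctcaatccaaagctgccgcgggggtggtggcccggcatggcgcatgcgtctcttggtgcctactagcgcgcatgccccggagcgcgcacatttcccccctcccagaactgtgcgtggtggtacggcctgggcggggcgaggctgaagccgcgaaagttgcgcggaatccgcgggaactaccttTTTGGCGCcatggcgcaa
Mcm3 promoter: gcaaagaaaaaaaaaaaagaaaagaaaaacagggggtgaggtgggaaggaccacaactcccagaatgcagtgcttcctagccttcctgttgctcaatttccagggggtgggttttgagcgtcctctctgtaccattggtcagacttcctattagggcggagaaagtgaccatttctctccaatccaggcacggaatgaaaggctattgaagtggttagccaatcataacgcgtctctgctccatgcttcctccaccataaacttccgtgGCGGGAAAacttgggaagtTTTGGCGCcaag
Tyms promoter: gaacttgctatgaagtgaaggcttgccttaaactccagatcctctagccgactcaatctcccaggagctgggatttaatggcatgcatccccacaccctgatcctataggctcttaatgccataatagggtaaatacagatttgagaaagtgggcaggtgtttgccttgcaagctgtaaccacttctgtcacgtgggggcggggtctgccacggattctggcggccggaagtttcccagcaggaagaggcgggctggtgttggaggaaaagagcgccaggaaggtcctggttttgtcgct
Orc1 promoter: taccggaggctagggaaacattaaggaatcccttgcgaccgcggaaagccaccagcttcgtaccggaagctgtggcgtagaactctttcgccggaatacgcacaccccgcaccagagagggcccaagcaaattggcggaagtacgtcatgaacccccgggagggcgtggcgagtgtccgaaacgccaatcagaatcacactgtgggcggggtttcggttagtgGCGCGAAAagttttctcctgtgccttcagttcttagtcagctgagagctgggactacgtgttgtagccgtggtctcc
The Cdt1 match began 33 bases and the Mcm3 matches 20 and 39 bases downstream of the start, counting the start as base 1, and the Orc1 match began 27 bases upstream of it. Tyms had none of these letters in its window.

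The Hdac9 probe set was dim on every array, at 3.74, 3.62 and 3.66 in HDAC9-/- and 3.50, 3.74 and 4.10 in wild type samples. These levels overlap, and the place of the probes relative to the deletion is not known here, so they do not check the labels. Across the array 3 of 22626 probe sets passed the adjusted p threshold of 0.05 (limma, Benjamini-Hochberg), and none belonged to a member. Of 6 Treg and CD4 T cell markers 3 were higher and 3 lower, and Foxp3 overlapped, at 10.33 to 10.44 in HDAC9-/- and 10.29 to 10.38 in wild type samples. Il2ra, which encodes CD25, was slightly lower without overlap, at 9.34 to 9.42 in HDAC9-/- and 9.45 to 9.54 in wild type samples. Its difference was -0.08 (limma, adjusted p = 0.712), and 5.7% of all genes were lower without overlap. The Ikzf2 probe set was dim, at 4.89 to 5.29 in HDAC9-/- and 4.36 to 5.24 in wild type samples, below the median of all probe sets (5.77). Wild type replicate 3 had the lowest mean correlation with the other arrays (0.991, against 0.994 to 0.996) and the lowest median (5.69, against 5.77 to 5.81). It was also the lowest array for 31.3% of all genes and the highest for 23.1%, in each case the largest share of the 6 arrays. Leaving it out moved the difference of 16 of the 41 members by over 1.5 times or turned its sign. Those members are given with and without it below.

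Replication genes were slightly higher in HDAC9-/- Treg nearly throughout, and no member passed the test. The difference, HDAC9-/- minus wild type, was positive for 39 of 41 members (95.1%), compared with 54.0% of all genes, and its median was 0.17, or 1.12-fold, against 0.013 over all genes. Differences ran from -0.20 to 0.45, and 12.1% of all genes had a difference above the members' median. Adjusted p over all probe sets ran from 0.398 to 0.938 (limma), where 0.0133% of probe sets passed. At an unadjusted p below 0.05, 14 members were higher and 0 lower (34.1% and 0%, against 6.12% of all genes higher and 2.62% lower). The arrays of the genotypes did not overlap for 20 members, all higher in HDAC9-/- samples (48.8%, against 12.5% of all genes higher and 5.7% lower). Members that vary together are not independent, so these shares carry no test. The 95% confidence interval of a member reached, at the median, 0.19 to either side, about the size of the median difference, and no upper bound exceeded 1 log2 unit.

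**Figure D1:**
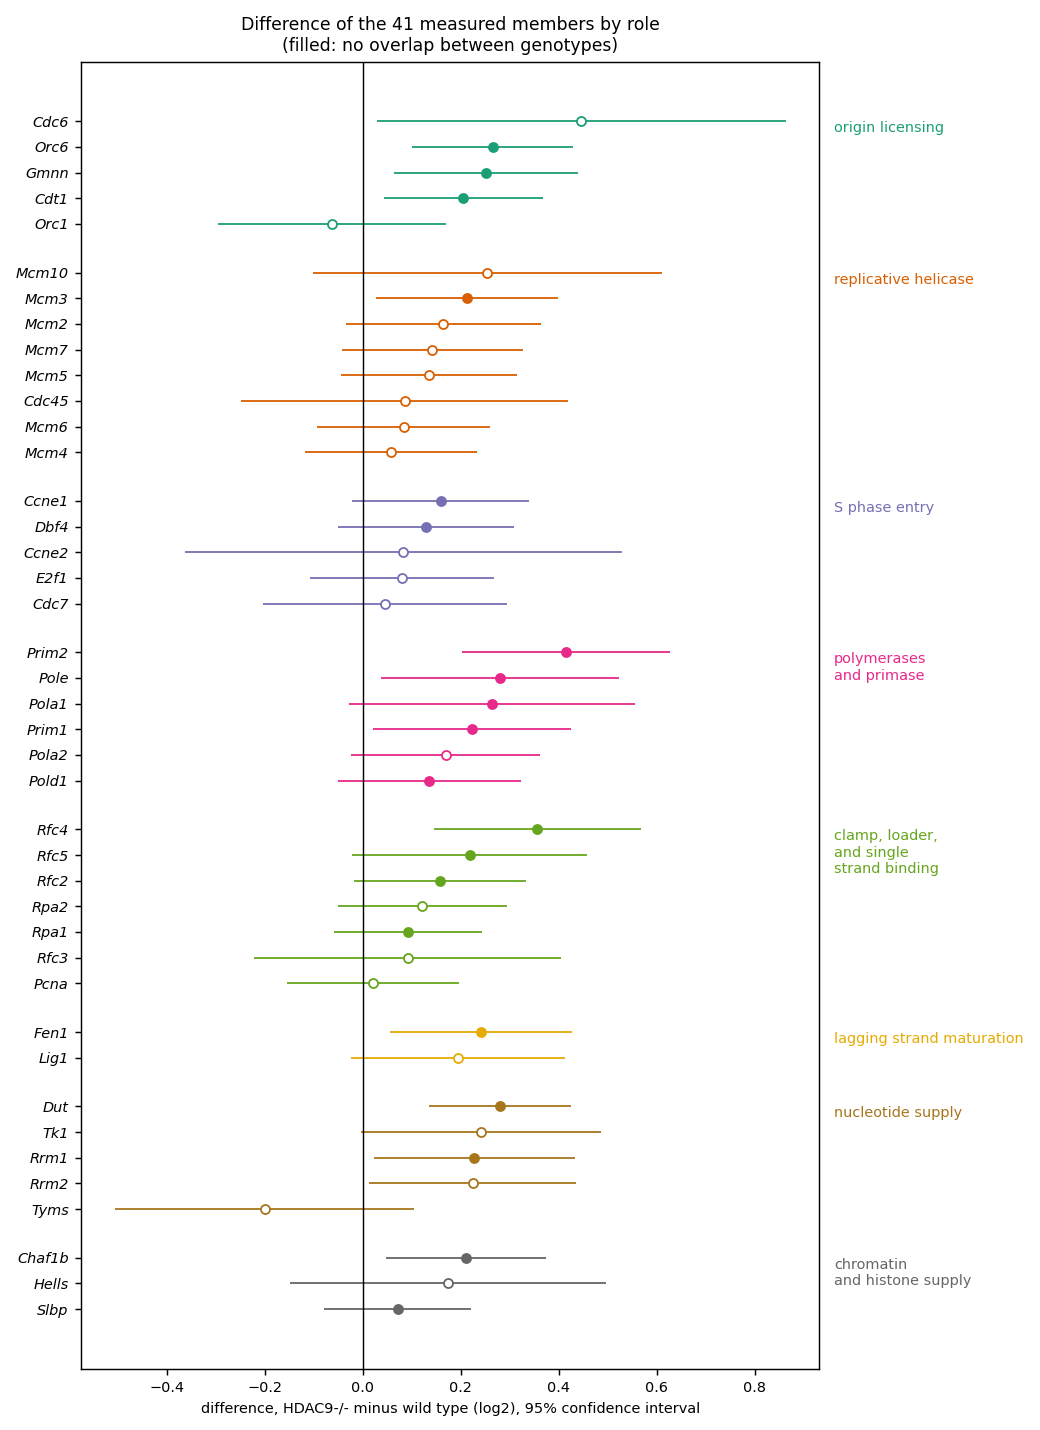
Difference between HDAC9-/- and wild type (log2, x axis) for each of the 41 measured members, grouped by role; bars are 95% confidence intervals from limma and filled points mark genes whose 3 HDAC9-/- arrays all read above the 3 wild type arrays. Points lie right of 0 for 39 members, and the intervals of 14 lie wholly above 0.

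Among the licensing genes, 4 of 5 were higher and 3 of these did not overlap between genotypes (12.5% of all genes were higher without overlap). Orc6, a subunit of the origin recognition complex, read 7.33, 7.23 and 7.37 in HDAC9-/- replicates 1 to 3 against 7.04, 7.09 and 7.02 in wild type replicates 1 to 3. It differed by 0.27 ± 0.07 (SE; limma, adjusted p = 0.434), and every HDAC9-/- array lay above every wild type array. Cdt1, the loading factor whose promoter is shown above, read 10.31, 10.18 and 10.24 in HDAC9-/- samples and 10.04, 10.07 and 10.00 in wild type samples. Its groups did not overlap either (difference 0.20, adjusted p = 0.517), and 2 dimmer probe sets of Cdt1 also had positive differences, 0.28 and 0.11. Gmnn encodes geminin, the inhibitor of CDT1, and was higher together with its target. It read 8.79, 8.68 and 8.89 in HDAC9-/- samples and 8.47, 8.58 and 8.56 in wild type samples (difference 0.25, adjusted p = 0.496). Cdc6, an ATPase that loads the helicase, had the largest difference of the members with all arrays, 0.45 ± 0.18 (SE) or 1.36-fold. Without wild type replicate 3 it was 0.26, smaller than that of the primase gene Prim2 (0.35). The groups of Cdc6 overlapped, because HDAC9-/- replicate 2 (6.15) lay below wild type replicate 2 (6.18), and the wild type arrays spread from 5.54 to 6.18. Orc1, the largest subunit of the origin recognition complex, was dim and slightly lower, at 4.46, 4.60 and 4.40 in HDAC9-/- samples and 4.46, 4.47 and 4.71 in wild type samples. Its difference of -0.06 was 0.019 without wild type replicate 3 and -0.019 without HDAC9-/- replicate 3.

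All 8 genes of the replicative helicase had positive differences, from 0.06 to 0.25. On the chosen probe sets their groups overlapped for all except Mcm3. Mcm3, one of the ring subunits, read 9.65, 9.46 and 9.60 in HDAC9-/- samples and 9.33, 9.42 and 9.32 in wild type samples. It differed by 0.21 ± 0.08 (SE, adjusted p = 0.546). Of its 4 dimmer probe sets, 3 had positive differences of 0.14 to 0.17 and the other had -0.17, so the probe sets of Mcm3 differed in sign. All 4 overlapped between genotypes. The other ring subunits differed by 0.16 (Mcm2), 0.06 (Mcm4), 0.13 (Mcm5), 0.08 (Mcm6) and 0.14 (Mcm7). Mcm4 also had a dimmer probe set with a difference of -0.12. Of the dimmer Mcm7 probe sets, those differing by 0.22 and 0.11 did not overlap between genotypes, and the one differing by 0.06 did. Mcm10, which helps activate the helicase, differed by 0.25 (SE 0.15), and Cdc45, the helicase cofactor, by 0.09 (SE 0.14). Without wild type replicate 3 the differences were 0.10 for Mcm2, 0.09 for Mcm4, 0.16 for Mcm10 and 0.06 for Cdc45. Together with Ccne2, Orc1 and Tyms, Cdc45 was 1 of 4 members with a mean under the array-wide median.

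Genes of S phase entry had the smallest differences of the role groups, with a median of 0.08 over 5 genes. Ccne1, which encodes cyclin E1, read 7.07, 6.91 and 6.95 in HDAC9-/- samples and 6.83, 6.88 and 6.75 in wild type samples (difference 0.16, adjusted p = 0.601). Dbf4, the activating subunit of the CDC7 kinase, differed by 0.13, and its lowest HDAC9-/- array and highest wild type array both rounded to 8.50. Ccne2 (0.08), the kinase gene Cdc7 (0.05) and E2f1 (0.08), the E2F activator, overlapped between genotypes. Without wild type replicate 3, Ccne2 differed by -0.13, Cdc7 by -0.06 and E2f1 by 0.03. Other arrays moved these 3 too. Ccne2 differed by 0.0084 without HDAC9-/- replicate 3, and Cdc7 by 0.0075 without HDAC9-/- replicate 1. Without wild type replicate 2, E2f1 differed by 0.14. A dimmer E2f1 probe set differed by 0.29 with a standard error of 0.16. The upper bounds of the 95% confidence intervals were 0.27 for E2f1 and 0.53 for Ccne2, so larger differences than those measured are within the error.

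Polymerase and primase genes had a median difference of 0.24. On the chosen probe sets 5 of the 6 were higher without overlap between genotypes (12.5% of all genes). Prim2, the large subunit of primase, had the smallest p-value of all members. It read 7.54, 7.37 and 7.44 in HDAC9-/- samples and 7.04, 7.16 and 6.91 in wild type samples, a difference of 0.41 ± 0.09 (SE) or 1.33-fold (adjusted p = 0.398). The lowest HDAC9-/- array (7.37) lay clear of the highest wild type array (7.16). A second, dimmer Prim2 probe set differed by 0.24, and its groups overlapped. Prim1, the catalytic subunit of primase, read 8.71, 8.44 and 8.55 in HDAC9-/- samples and 8.35, 8.35 and 8.33 in wild type samples (difference 0.22, adjusted p = 0.549). Its wild type arrays lay close together (SD 0.0085), and the HDAC9-/- arrays spread more widely above them (SD 0.14). Pole, the catalytic subunit of the leading strand polymerase epsilon, read 6.91, 6.77 and 6.81 in HDAC9-/- samples and 6.60, 6.70 and 6.36 in wild type samples (difference 0.28, adjusted p = 0.545). Pola1, the catalytic subunit of polymerase alpha, differed by 0.26, Pola2, its accessory subunit, by 0.17 and Pold1, the catalytic subunit of polymerase delta, by 0.14. Without wild type replicate 3, the lowest array for Pole and Pola1, the difference was 0.18 for Pole and 0.13 for Pola1. A dim second probe set of Pola2 differed by -0.32, and wild type replicate 3 was its highest array (4.35). For Pold1 a dimmer probe set differed by 0.07, with overlapping groups.

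The clamp, its loader and the single strand binding protein had positive differences for all 7 genes, from 0.02 to 0.36 with a median of 0.12. Rfc4, a clamp loader subunit, had the third smallest p-value of the members. It read 7.99, 7.82 and 7.83 in HDAC9-/- samples and 7.52, 7.64 and 7.41 in wild type samples, a difference of 0.36 ± 0.09 (SE) or 1.28-fold (adjusted p = 0.423). Its second probe set differed by 0.52, and neither probe set overlapped between genotypes. The other loader subunits differed by 0.16 (Rfc2), 0.09 (Rfc3) and 0.22 (Rfc5). Without wild type replicate 3, Rfc3 differed by 0.05 and Rfc5 by 0.14. Pcna, the sliding clamp, was bright on all arrays, at 11.84, 11.73 and 11.69 in HDAC9-/- samples and 11.68, 11.72 and 11.80 in wild type samples. Its difference of 0.02 had a 95% confidence interval of -0.16 to 0.20, its sign turned to -0.0055 with array medians aligned, and it was 0.05 without wild type replicate 3. Rpa1 and Rpa2, subunits of the single strand binding protein RPA, differed by 0.09 and 0.12. Both lagging strand genes were higher. Fen1, the flap nuclease that trims Okazaki fragments, read 9.47, 9.38 and 9.33 in HDAC9-/- samples and 9.18, 9.22 and 9.05 in wild type samples (difference 0.24, adjusted p = 0.508). The groups of Fen1 did not overlap on this probe set, while those of Lig1, the ligase that joins the fragments, did (difference 0.19). A dimmer Fen1 probe set differed by 0.14, and its groups overlapped.

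**Figure D2:**
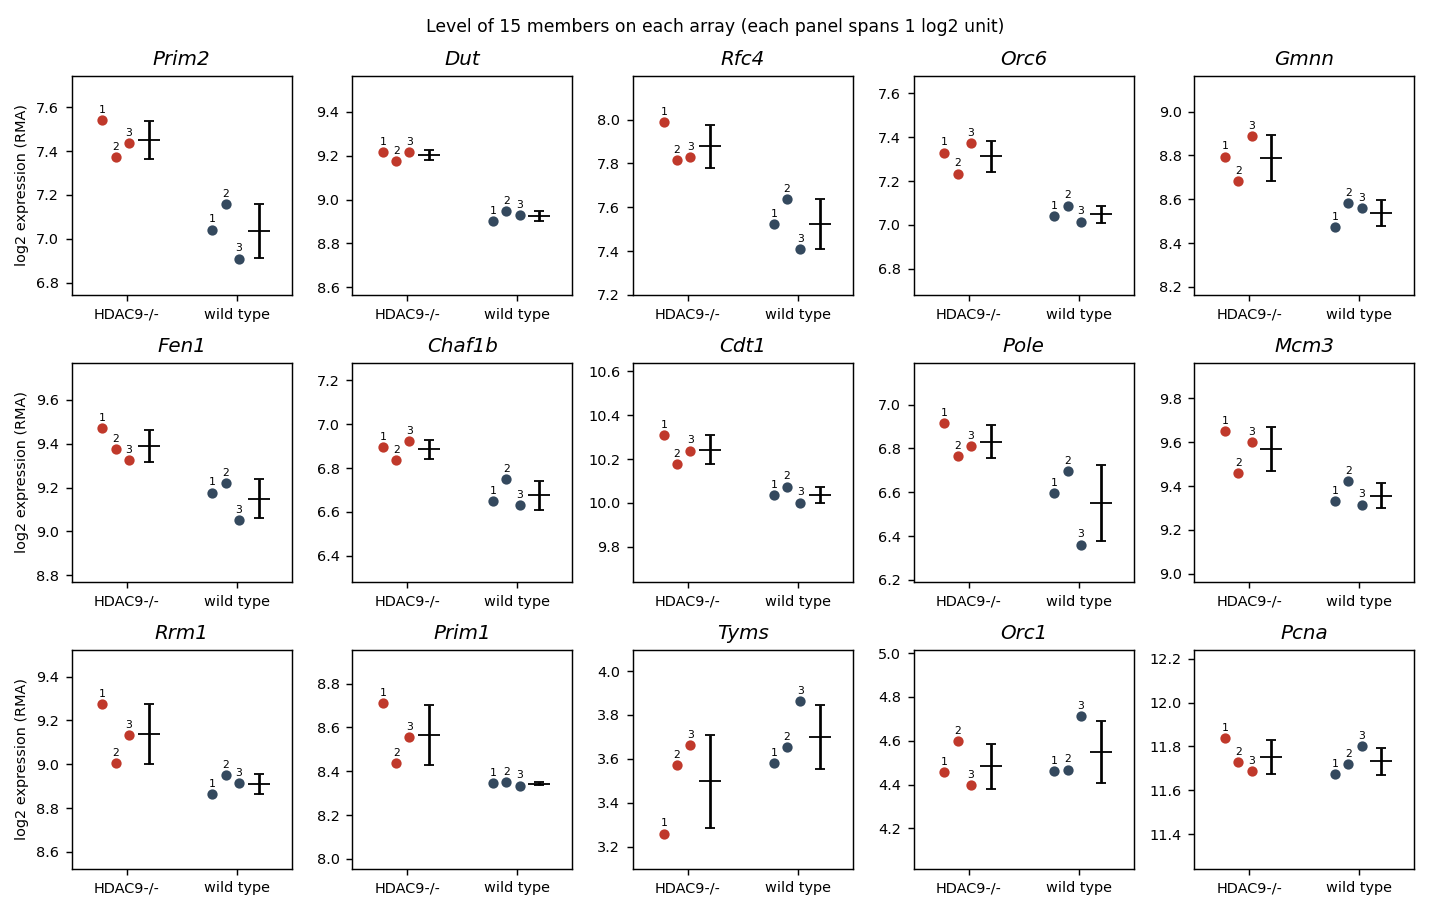
Log2 expression (y axis) of 15 members on each array, with HDAC9-/- arrays in red on the left and wild type arrays in dark blue on the right; numbers are replicates, and black bars are means with SD (n = 3 each). The 12 members with the smallest p-values come first and show no overlap between genotypes, while Tyms, Orc1 and Pcna, the last 3 panels, overlap.

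Of the nucleotide supply genes 4 of 5 were higher, and Tyms was lower. Dut, the dUTPase that keeps uracil out of DNA, had replicates that lay close together in both genotypes. It read 9.22, 9.18 and 9.22 in HDAC9-/- samples and 8.90, 8.95 and 8.93 in wild type samples, averaging 9.20 ± 0.02 in HDAC9-/- and 8.93 ± 0.02 in wild type samples (SD, n = 3 each). The difference of 0.28 or 1.21-fold had a standard error of 0.06 and a 95% confidence interval of 0.13 to 0.42 (adjusted p = 0.398). Rrm1, the large subunit of ribonucleotide reductase, read 9.28, 9.004 and 9.13 in HDAC9-/- samples and 8.86, 8.95 and 8.91 in wild type samples (difference 0.23, adjusted p = 0.549). A dimmer Rrm1 probe set differed by -0.0066. The small subunit gene Rrm2 differed by 0.22 (0.20 and 0.06 in dimmer probe sets), and Tk1, the thymidine kinase of S phase, differed by 0.24. Tyms encodes thymidylate synthase and read 3.26, 3.57 and 3.66 in HDAC9-/- samples and 3.58, 3.65 and 3.86 in wild type samples. It differed by -0.20 ± 0.13 (SE, adjusted p = 0.660), and its groups overlapped. Without wild type replicate 3 the difference was -0.12. All 3 Tyms probe sets had negative differences and read between 3.05 and 3.86 on every array, close to the lowest values of the table (2.42 to 14.32), so no level above background is shown in either genotype.

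The chromatin and histone supply genes that were measured were all higher. Chaf1b, a subunit of the CAF-1 complex that places histones on new DNA, read 6.90, 6.84 and 6.92 in HDAC9-/- samples and 6.65, 6.75 and 6.63 in wild type samples (difference 0.21, adjusted p = 0.509). Hells, a chromatin remodeller that supports DNA methylation, differed by 0.17 (0.09 without wild type replicate 3), and its groups overlapped. Slbp, which binds the stem-loop of replication-dependent histone mRNAs, differed by 0.07 with no overlap between genotypes. Its HDAC9-/- arrays lay within 10.20 to 10.21 and its wild type arrays within 10.08 to 10.18.

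Arrays of the same genotype differed in the members together. The centred score, the mean over the 41 members of the value minus the member's mean over all arrays, was 0.14, 0.0043 and 0.11 in HDAC9-/- replicates 1 to 3, against -0.09, -0.0094 and -0.15 in wild type replicates 1 to 3. HDAC9-/- replicate 2 thus lay just above wild type replicate 2, and the groups did not overlap. The score averaged 0.08 ± 0.07 in HDAC9-/- and -0.08 ± 0.07 in wild type samples (SD, n = 3), a difference of 0.17. HDAC9-/- replicate 2 was the lowest HDAC9-/- array for 32 of 41 members, against 32.6% of all genes. Wild type replicate 2 was the highest wild type array for 31 of 41 members, against 28.5% of all genes. HDAC9-/- replicate 1 lay above all wild type arrays for 36 members (33.6% of all genes), replicate 3 for 32 (27.5%) and replicate 2 for 20 (27.6%). Scores did not overlap between genotypes for licensing, polymerase, clamp, lagging strand and nucleotide genes, and overlapped for helicase, S phase entry and chromatin genes. Without wild type replicate 3 the median difference of the members was 0.13, 38 members were higher, and 22 did not overlap (higher for 17.8% of all genes). The count of members higher at an unadjusted p below 0.05 was 14 on all arrays. Without HDAC9-/- replicates 1, 2 and 3 in turn the count was 5, 17 and 6. Without wild type replicates 1, 2 and 3 it was 7, 16 and 8. Shares of all genes at this threshold were not computed with an array left out. Changes in the count can therefore not be called particular to the members.

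**Figure D3:**
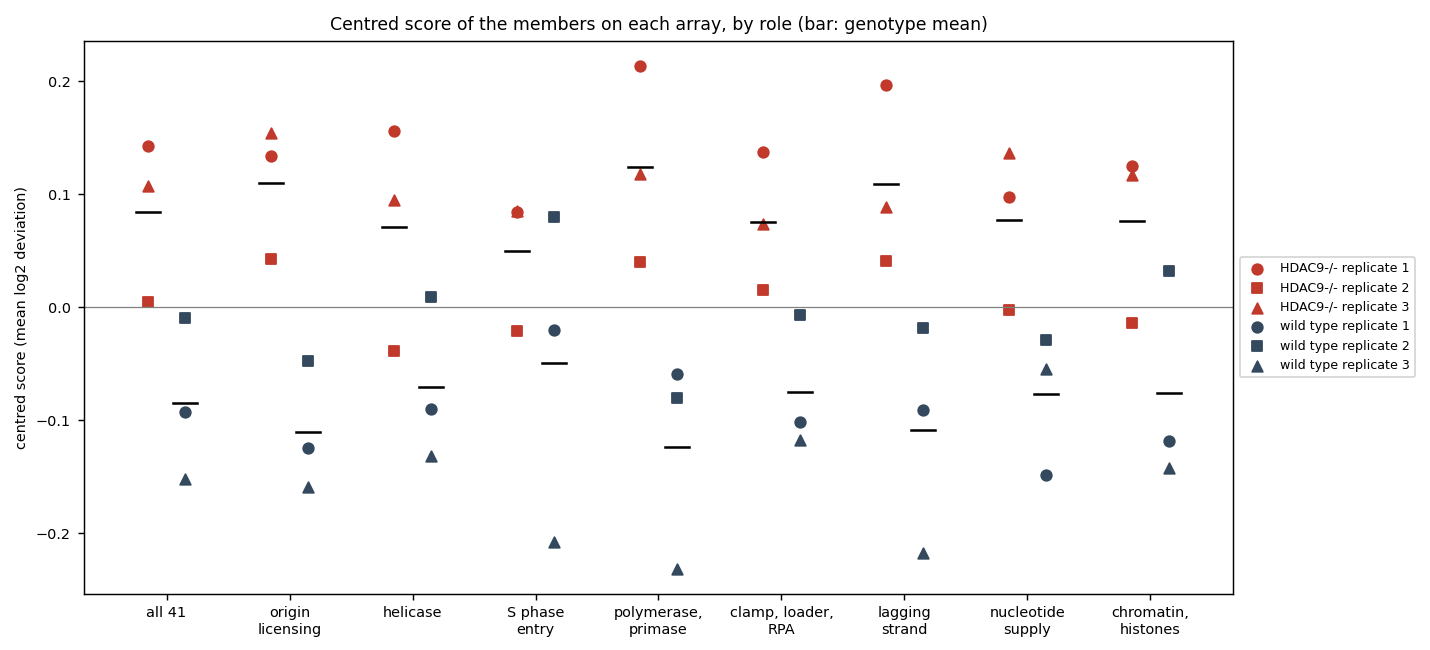
Centred score (mean log2 deviation from each gene's mean over the 6 arrays, y axis) of all 41 members and of each role group, with HDAC9-/- arrays in red left of wild type arrays in dark blue; symbols are replicates and bars are genotype means. Over all members HDAC9-/- replicate 2 (0.0043) and wild type replicate 2 (-0.0094) nearly meet, between the other arrays of each genotype.

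The choice of probe set altered few signs. Over all 73 probe sets of the members, 64 had positive differences, with a median of 0.14. Members with several probe sets numbered 24, and 5 of these (Mcm3, Mcm4, Pola2, Rpa2 and Rrm1) had probe sets of both signs. For 6 members (Fen1, Mcm2, Mcm3, Mcm7, Pold1 and Rrm2) the chosen probe set carries a suffix that marks probes shared with other transcripts (_s_at or _x_at), and signal of related transcripts may be mixed there. The other 35 members had a median difference of 0.17, with 33 positive. Members with an E2F match in their window had a median difference of 0.16 (11 of 12 positive) and those without one 0.17 (22 of 23 positive), a contrast that was not tested.

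Genes of replication outside the list were mostly higher as well, by less. Of 40 measured genes 31 had positive differences, the median was 0.08, and none passed over all probe sets. At an unadjusted p below 0.05, 7 of the 40 were higher and 2 lower, where 6.12% of all genes were higher and 2.62% lower. Uhrf1, which recruits the maintenance DNA methyltransferase to new DNA, read 8.34, 8.18 and 8.28 in HDAC9-/- samples and 7.88, 7.91 and 7.87 in wild type samples (difference 0.38, adjusted p = 0.339). The histone chaperone gene Asf1a differed by 0.24. Of the 9 genes with negative differences, the 2 at an unadjusted p below 0.05 were Top1 (-0.25) and Rrm2b (-0.20). Top1 is a topoisomerase that relaxes DNA ahead of polymerases, and Rrm2b is the ribonucleotide reductase subunit used outside S phase. S phase checkpoint and repair genes were positive for 12 of 16, with a median of 0.06 and 0 past the adjusted threshold. Ung, the uracil glycosylase (0.24), Brca1 (0.42) and the checkpoint kinase Chek1 (0.46) had the smallest p-values among them. Wild type replicate 3 was the lowest array for Brca1 (5.79) and Chek1 (5.34), and without it they differed by 0.24 each. Cell cycle brakes showed no common direction, with 9 of 15 positive, a median of 0.025 and 0 past the adjusted threshold. The CDK inhibitor gene Cdkn2c was higher by 0.41 (adjusted p = 0.362) and the antiproliferative gene Btg1 lower by -0.27 (adjusted p = 0.537).

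Mitosis and G2 genes, which cells use after replication, had positive differences for 27 of 28 members, with a median of 0.28. None passed, 17 of the 28 were higher at an unadjusted p below 0.05 (6.12% of all genes), and 20 were higher without overlap between genotypes (12.5% of all genes). Aurka, a mitotic kinase, differed by 0.35 (adjusted p = 0.342), Mad2l1, a spindle checkpoint protein, by 0.40 (adjusted p = 0.377) and Mki67, the proliferation marker, by 0.31 (adjusted p = 0.505). Their centred score was 0.15, 0.05 and 0.20 in HDAC9-/- replicates 1 to 3, against -0.16, -0.0035 and -0.24 in wild type replicates 1 to 3. HDAC9-/- replicate 2 was again the lowest of its genotype and wild type replicate 2 the highest. Whether the mitosis genes differed more than the replication genes was not tested.

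**Figure D4:**
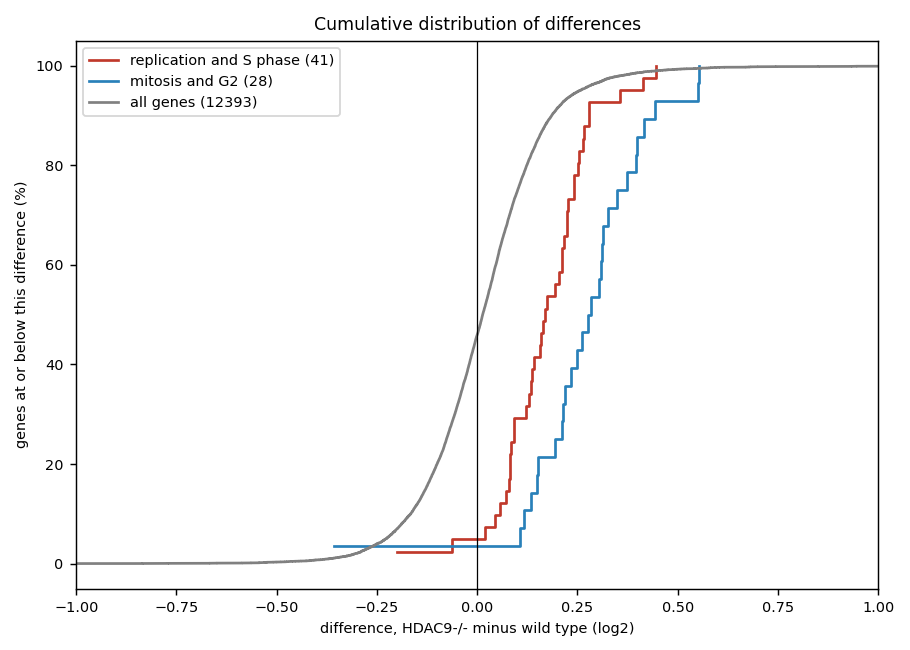
Cumulative share of genes (y axis, percent) at or below each difference between HDAC9-/- and wild type (log2, x axis) for 41 replication and S phase genes (red), 28 mitosis and G2 genes (blue) and 12393 genes on the array (grey). The red curve crosses the middle of the y axis at 0.17, the blue curve at 0.28 and the grey curve at 0.013.

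Some markers of other cell types and 1 of the pair of RNA quality controls were also set apart by genotype. Myeloid markers were higher for 13 of 13 measured genes, with a median of 0.38, and the sum of their linear signals was 12047 to 14495 in HDAC9-/- and 5735 to 9814 in wild type samples. Chil3, a gene of neutrophils and macrophages, had the smallest p-value among them, with a difference of 1.46 (adjusted p = 0.398). Ltf, S100a9 and S100a8 differed by 1.22, 1.01 and 0.96, and like Chil3 did not overlap between genotypes. S100a8 was bright, at 11.85 to 12.03 in HDAC9-/- and 10.30 to 11.36 in wild type samples. Its difference was 0.62 without wild type replicate 1. The groups of Csf1r, Lyz2, Mpeg1, Adgre1 and Itgam overlapped, with differences of 0.13 to 0.50. Of the 13 myeloid markers 5 were higher without overlap (12.5% of all genes). Markers of CD8 T and natural killer cells were higher for 8 of 10, and their sum was 6908 to 7561 in HDAC9-/- and 5562 to 7296 in wild type samples. B cell and plasma cell markers were higher for 4 of 7 (sums of 3711 to 4208 in HDAC9-/- and 4674 to 5039 in wild type samples). The brightest of them, Jchain, the joining chain of secreted antibodies, differed by -0.47 (adjusted p = 0.337), while Cd79a, Cd79b, Blk and Ms4a1 had positive differences of 0.07 to 0.23 and the centred score overlapped between genotypes. Germinal centre markers were higher for 1 of 4, with a summed signal of 315 to 356 in HDAC9-/- and 366 to 398 in wild type samples. Erythroid precursor markers were higher for 1 of 8, Tfrc, which cycling lymphocytes also express, and their sum was 726 to 856 in HDAC9-/- and 713 to 740 in wild type samples. RMA values are never 0, and the defining red cell genes Hba-a1, Alas2 and Klf1 were among the markers that were dim on every array (3.49 to 4.42 in HDAC9-/- and 3.40 to 5.01 in wild type samples). No marker passed the adjusted threshold. The myeloid score was 0.40, 0.47 and 0.01 in HDAC9-/- replicates 1 to 3, against -0.66, -0.10 and -0.13 in wild type replicates 1 to 3, so HDAC9-/- replicate 2, the lowest of its genotype for the replication genes, was the highest for myeloid markers. The 3-prime minus 5-prime difference of the Gapdh control probe sets was 0.28, 0.17 and 0.15 in HDAC9-/- samples and 0.11, 0.03 and 0.05 in wild type samples. It did not overlap between genotypes, as the replication score did not. The same difference for the actin controls overlapped, at 0.60, 0.42 and 0.47 in HDAC9-/- samples and 0.41, 0.33 and 0.46 in wild type samples. The part of these markers and of RNA quality in the differences of the replication genes was not tested.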

How the data were processed

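Biotin-labelled RNA of 3 HDAC9-/- and 3 wild type CD4+CD25+ samples was measured on 1 expression array per sample, per the labels' protocols. The authors deposited log2 expression values per probe set, made with RMA per the submitters' processing notes (version not given in the sources used here). RMA pulls dim probe sets together, which understates their fold changes. The number of arrays limits the precision.

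Of 22690 probe sets, 64 controls were left out and 22626 tested without a brightness filter with limma 3.58.1 (R 4.3.3; lmFit, eBayes, genotype as the only term, Benjamini-Hochberg over all probe sets, two-sided). Symbols came from the platform annotation and were updated through Entrez identifiers with the RefSeq table of GRCm38.p6. Groups and replicate numbers came from the sample titles. The members, lists and tests were chosen with earlier results of these data known, and no set test or p-value for a score was computed. Full values are given for the 12 members with the smallest p, the 3 with the lowest differences and those whose probe sets differ in sign with 1 of them at an unadjusted p below 0.05; other members were named freely, and from the lists of other replication, mitosis, checkpoint and brake genes those with the smallest p; genes named beyond this (Rrm2b, Mki67 and the cell type markers among them) were chosen after their values were seen. The main fit did not pair samples by replicate number. Deviations of same-numbered arrays correlated at 0.04, 0.10 and -0.25, and those of differently numbered arrays at -0.35 to 0.28. With 3 arrays per genotype these values cannot decide whether the numbers mark pairs. The fit was tested on simulated data. Plots were made in Python 3.11.15 with matplotlib 3.10.9.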

Additional observations from a re-analysis of the deposited data

How the results depend on the processing

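The median difference of the members stayed positive under each alternative, from 0.12 with array weights to 0.23 without HDAC9-/- replicate 2, and 36 to 39 members were higher (37 of 37 with dim probe sets left out). The score difference ran from 0.14 to 0.21, and no member passed under any alternative; the smallest adjusted p of a named member was 0.110. Members without overlap numbered 20 and, with 1 array left out, 20 to 33 (26.8% to 29.8% of all genes, either direction, against 18.2% with all arrays). The count at an unadjusted p below 0.05, an alternative chosen after seeing the data, was 14 and became 9 with array weights, 9 with the replicate block, 20 with a trended and robust prior, and 5 to 17 with 1 array left out. The share of all genes at this threshold was computed for the main fit only. Over the whole array the count of 3 calls became 15 with a trended and robust prior, 6 with array weights, 0 with the replicate block, 1 with 1 probe set per gene and 0 to 6 with 1 array left out. Of 15 named members, Orc1 and Pcna changed sign: Orc1 to 0.024 with array weights and 0.019 without wild type replicate 3 (-0.12 to 0.019 over the arrays left out), and Pcna to -0.0055 with array medians aligned, -0.023 without HDAC9-/- replicate 1 and -0.0080 without wild type replicate 1 (-0.023 to 0.054 over the arrays left out). Of the other members, whose differences with 1 array left out were added after seeing the data, Ccne2 ran from -0.13 (without wild type replicate 3) to 0.245, Cdc7 from -0.060 (without wild type replicate 3) to 0.115, Cdc45 from -0.047 (without HDAC9-/- replicate 3) to 0.23 and Rfc3 from -0.0017 (without wild type replicate 1) to 0.23. Differences moved by over 1.5 times or turned for 8, 5 and 5 members without HDAC9-/- replicates 1, 2 and 3 in turn, and for 6, 8 and 16 without wild type replicates 1, 2 and 3. The cause was not tested. The differences of these 6 members lay within their standard errors. Dim members (Tyms, Orc1, Ccne2 and Cdc45) are limited by signal over background, and the number of arrays limits the rest.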
